A study of Mus musculus with 17 samples.

Results

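The enzymes that cut the extracellular matrix, the inhibitors that hold them back and the enzymes that crosslink collagen and elastin were followed in hearts with a proofreading-deficient mitochondrial DNA polymerase. The group comprised the proteases *Mmp2*, *Mmp3* and *Mmp14*, the inhibitors *Timp1*, *Timp2*, *Timp3* and *Timp4*, and the crosslinkers *Lox*, *Loxl1* and *Loxl2*, chosen by name. All 10 were found, each as 1 row, among the 56748 genes of the count table, and all 10 passed the filter on low counts, as did 16195 genes in all.

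Poly(A) RNA was sequenced from the heart of 17 mice aged 12 to 16 months, 1 library per mouse, with 8 controls (Ctrl 1 to 8) and 9 *Polg* hMut mice (hMut 1 to 9). The hMut mice were homozygous for the inducible allele and carried a cre transgene (*Polg* iMut/iMut; +/Ckmm-cre), in which the muscle creatine kinase promoter drives removal of the floxed wild-type *Polg* cassette, so that POLG D257A expression is directed to heart and skeletal muscle cells rather than to the fibroblasts and immune cells of the heart. The labels give the controls only as Ctrl, and neither group was treated. RNA came from heart tissue with all its cell types together, so fewer cells of a type and less RNA per cell cannot be told apart.

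Matrix metalloproteinases are secreted or membrane-bound zinc enzymes that cleave collagens, elastin, proteoglycans and other matrix proteins. They are made as inactive precursors, and the tissue inhibitors of metalloproteinases (TIMPs) bind the active enzymes and block them. Lysyl oxidases are copper enzymes that oxidise lysine side chains of collagen and elastin, the first step of the covalent crosslinks that make these fibres stiff and hard to degrade. In the heart, fibroblasts are a main source of most of these proteins.

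Total counts per library lay between 32915159 and 46486964, and markers of cardiomyocytes were abundant in every library, with levels of 31668 to 51379 CPM (counts over the library total, scaled by TMM) for the 8 listed genes together. *Polg* was higher in hMut, with 57.9 ± 6.08 CPM (SD, n = 9) against 34.7 ± 7.31 CPM (SD, n = 8), a log2 fold change of 0.74 ± 0.10 (SE, adjusted p = 0.000448), and gene counts do not separate the D257A allele from the wild-type one. The 2 groups did not overlap in the share of counts from mtDNA-encoded genes, which lay between 23.5% and 30.9% in Ctrl and between 15.9% and 23.0% in hMut. *Xist* counts exceeded those of *Ddx3y* in 3 Ctrl and 2 hMut libraries, and the 3 Ctrl libraries were Ctrl 5, 6 and 7.

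A set of 5 libraries stood apart in genes of the circadian clock, and they fell unevenly over the groups. Ctrl 5, 6, 7 and 8 and hMut 8 held more counts of *Per2*, a repressor of the clock, than of *Arntl*, its activator, and are called high-*Per2* hearts. *Per2* lay between 17.3 and 26.7 CPM in these 5 hearts and between 2.65 and 9.04 CPM in the other 12, while *Arntl* lay between 1.91 and 4.36 CPM and between 14.3 and 25.8 CPM. The labels give no time of collection, and the split was made after its values were seen. Because 4 of 8 Ctrl hearts and 1 of 9 hMut hearts belong to the set, the fold change of each of the 10 genes is also given without these libraries. Of the 4 high-*Per2* Ctrl hearts 3 had more *Xist* than *Ddx3y* counts, against 0 of the 4 other Ctrl hearts. Sex and the high-*Per2* state thus overlap among Ctrl hearts, but not fully, since Ctrl 8 is high-*Per2* without more *Xist* than *Ddx3y* counts. The part of each was not tested, and the share of all genes that separate the 2 sets was not counted. Among the hMut hearts, hMut 6 and hMut 9 were the most distant from Ctrl, with 31.1% and 27.9% of all genes tested above every Ctrl heart, against 10.9% to 17.7% in the other hMut hearts. Fold changes without both are given too.

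Promoter sequence from RefSeq (GRCm38.p6) was matched by symbol for 6 of the 10 genes. For these 6, 2 proteases and the 4 inhibitors, the 250 bases before the transcription start are printed below, 5′ to 3′ on the strand of the gene. Capitals mark matches on either strand to 3 motifs, which overlap nowhere in these windows. The first, TGANTCA, is bound by AP-1 factors and is held by 6.75% of all 32851 promoters cut to this length. The second, TATAAA, is a TATA box and is held by 12.4% of them. The third, GGGCGG, is a GC box and is held by 32.7% of them.
*Mmp3* (chr9:7445572-7445821, plus strand): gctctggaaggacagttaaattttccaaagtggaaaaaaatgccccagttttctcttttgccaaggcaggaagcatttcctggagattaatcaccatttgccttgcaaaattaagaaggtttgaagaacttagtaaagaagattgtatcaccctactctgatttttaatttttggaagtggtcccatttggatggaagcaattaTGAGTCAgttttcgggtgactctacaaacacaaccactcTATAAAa
*Mmp14* (chr14:54431348-54431597, plus strand): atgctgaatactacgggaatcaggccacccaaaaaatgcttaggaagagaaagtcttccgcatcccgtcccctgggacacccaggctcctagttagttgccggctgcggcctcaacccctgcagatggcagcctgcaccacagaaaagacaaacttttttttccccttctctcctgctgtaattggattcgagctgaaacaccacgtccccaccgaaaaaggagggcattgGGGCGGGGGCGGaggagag
*Timp1* (chrX:20869916-20870165, plus strand): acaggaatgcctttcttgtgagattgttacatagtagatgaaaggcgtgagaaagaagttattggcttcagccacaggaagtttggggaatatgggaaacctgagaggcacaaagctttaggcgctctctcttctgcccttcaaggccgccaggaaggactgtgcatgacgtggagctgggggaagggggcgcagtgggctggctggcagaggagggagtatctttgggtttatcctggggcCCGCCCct
*Timp2* (chr11:118355412-118355661, minus strand): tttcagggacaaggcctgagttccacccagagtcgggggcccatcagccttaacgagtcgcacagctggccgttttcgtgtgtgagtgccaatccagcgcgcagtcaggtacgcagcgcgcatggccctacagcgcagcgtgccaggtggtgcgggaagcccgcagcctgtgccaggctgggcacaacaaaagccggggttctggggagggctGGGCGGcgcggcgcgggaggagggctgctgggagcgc
*Timp3* (chr10:86300162-86300411, plus strand): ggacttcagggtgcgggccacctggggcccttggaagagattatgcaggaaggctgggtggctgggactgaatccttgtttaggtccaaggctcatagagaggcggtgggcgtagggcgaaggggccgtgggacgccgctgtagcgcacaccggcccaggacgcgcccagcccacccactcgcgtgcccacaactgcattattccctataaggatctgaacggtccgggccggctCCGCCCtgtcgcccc
*Timp4* (chr6:115252206-115252455, minus strand): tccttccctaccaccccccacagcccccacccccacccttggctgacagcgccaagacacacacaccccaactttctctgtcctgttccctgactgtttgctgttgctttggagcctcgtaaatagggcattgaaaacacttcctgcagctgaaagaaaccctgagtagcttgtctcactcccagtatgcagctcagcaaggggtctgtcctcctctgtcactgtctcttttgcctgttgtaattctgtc

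In the *Mmp3* window the AP-1 motif began 46 bases before the start and the TATA box 7 bases before it, and no other window of the 6 held either. The GC box matched at 2 places in the *Mmp14* window and at 1 place each in those of *Timp1*, *Timp2* and *Timp3*, and the *Timp4* window held 0 matches to the motifs. CACGTG, the E-box bound by clock activators, was in 0 of the 6 windows and in 6.02% of all promoters. A match of letters is a description of the window and was not tested for binding.

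Proteases, inhibitors and crosslinkers did not move as one group between hMut and Ctrl. Of the 10 genes, only *Loxl1* passed the test, higher in hMut. Over all genes tested, 4.62% passed, 3.48% higher and 1.14% lower in hMut. Without the high-*Per2* hearts 0 of the 10 passed (0.376% of all genes higher), with the high-*Per2* state as a covariate 0 of the 10 (1.44%), and without hMut 6 and 9 again 0 of the 10 (1.96%). Fold changes were positive for 8 of the 10, as they were for 50.5% of all genes tested. The median log2 fold change of the 10 was 0.50 and that of all genes 0.00. At an unadjusted p under 0.05, 6 of the 10 were higher in hMut and 0 lower, against 14.5% and 11.3% of all genes. For 0 of the 10 did every hMut heart lie above every Ctrl heart, a pattern found in 0.543% of all genes, and for 0 below, against 0.0617%.

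**Figure D1:**
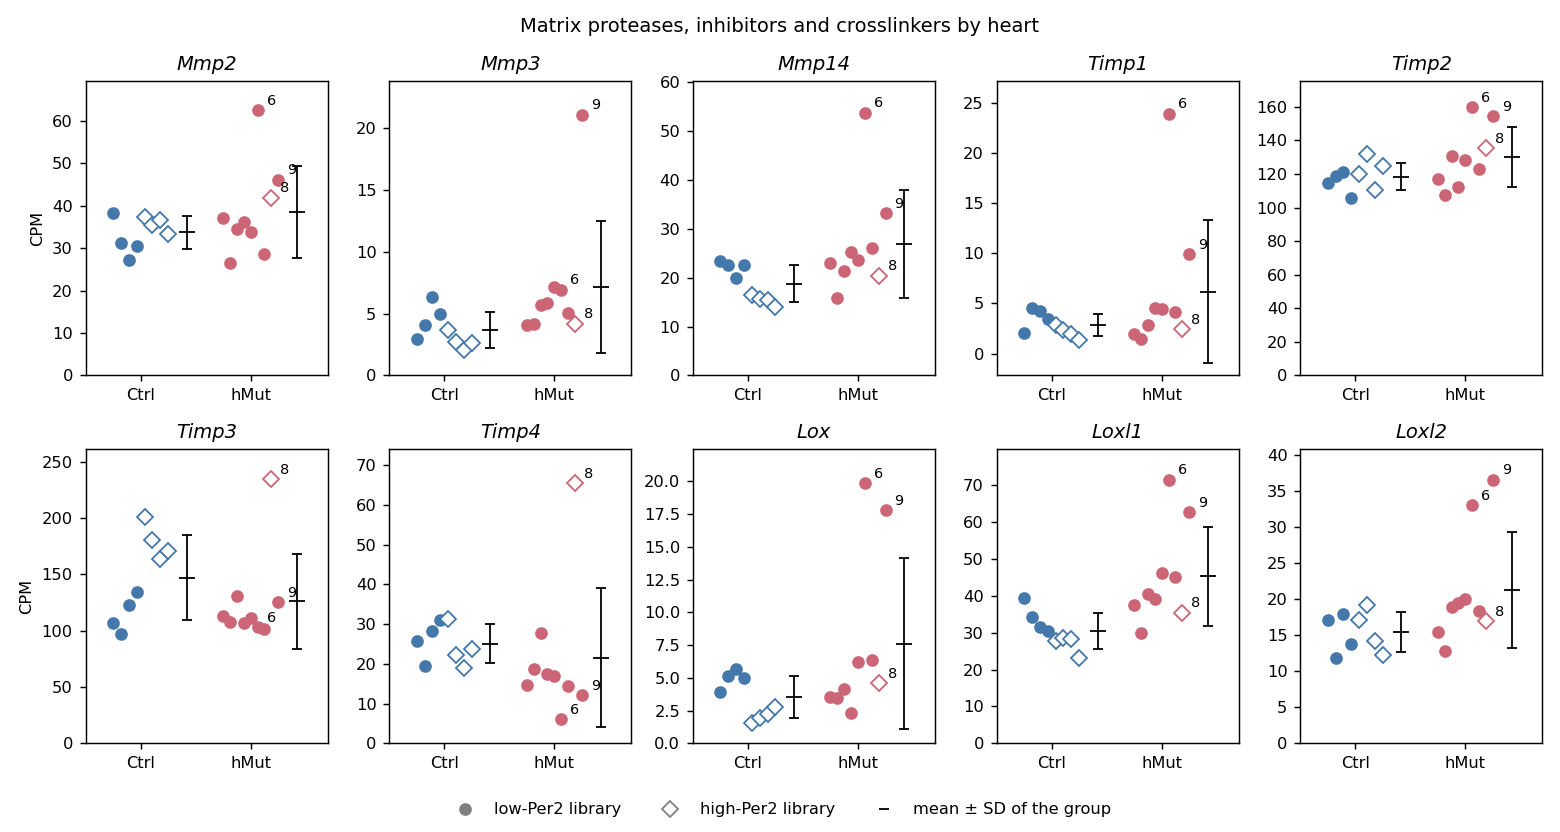
CPM of the 10 genes in each heart, 8 Ctrl (blue) and 9 hMut (red), on a linear axis for each gene. Open diamonds are the high-*Per2* hearts, hMut 6, 8 and 9 are numbered, and black bars show the mean and SD of each group. Reds spread widely in most genes because hMut 6 or hMut 9 lies far above the others, and in *Timp3* the open diamonds lie above all filled points.

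*Mmp14* encodes a membrane-bound collagenase that also activates the precursor of MMP2 at the cell surface. Its level in Ctrl hearts was 14.0 CPM at the lowest, 18.2 at the median and 23.3 at the highest, and in hMut hearts 15.9, 23.5 and 53.7 CPM. hMut 6 was the highest with 53.7 CPM and hMut 9 the second with 33.1 CPM, and 5 of 9 hMut hearts lay above every Ctrl heart. Between the groups the log2 fold change was 0.52 ± 0.19 (SE, adjusted p = 0.111). Without hMut 6 and 9 it was 0.25 (adjusted p = 0.288), and without the high-*Per2* hearts 0.33 (adjusted p = 0.545). The 4 high-*Per2* Ctrl hearts, at 14.0 to 16.4 CPM, all lay below the other 4 Ctrl hearts, at 19.9 to 23.3 CPM. Ctrl 8, the high-*Per2* Ctrl heart without more *Xist* than *Ddx3y* counts, held 14.0 CPM. The part of sex in this split was not tested. With sex as a covariate the log2 fold change between genotypes was 0.49 (adjusted p = 0.146).

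*Mmp3* encodes stromelysin-1, which cleaves proteoglycans, fibronectin and laminin and can activate other precursors. It lay at 2.02, 3.30 and 6.34 CPM (lowest, median, highest) in Ctrl and at 4.09, 5.72 and 21.1 CPM in hMut, so that all 9 hMut hearts exceeded the Ctrl median although the groups overlapped. The highest value, 21.1 CPM in hMut 9, was far from the next, 7.19 CPM in hMut 5. The log2 fold change of 0.97 ± 0.32 (SE) did not pass the test (adjusted p = 0.0838). Leaving out hMut 9 gave 0.57 (adjusted p = 0.143), leaving out hMut 6 and 9 gave 0.51 (adjusted p = 0.192) and leaving out the high-*Per2* hearts gave 0.72 (adjusted p = 0.453). The call came with limma-voom (0.85, adjusted p = 0.0166) and when hMut 2 was left out (1.05, adjusted p = 0.0484), where *Mmp14* also passed (0.60, adjusted p = 0.0459). Raw counts of *Mmp3* were between 81 and 935 per library.

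*Mmp2* encodes gelatinase A, which degrades denatured collagen and basement membrane collagen. Ctrl hearts lay at 27.2, 34.3 and 38.2 CPM (lowest, median, highest) and hMut hearts at 26.4, 36.2 and 62.4 CPM. hMut 6, 8 and 9 were above every Ctrl heart and hMut 2 below. The log2 fold change was 0.19 ± 0.13 (SE, adjusted p = 0.359) with all hearts, 0.02 without hMut 6 and 9 and 0.26 without the high-*Per2* hearts.

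Among the inhibitors, *Timp1*, the family member known for strong induction by cytokines and growth factors, had the widest range in hMut relative to its lowest value. Ctrl hearts lay at 1.39, 2.59 and 4.52 CPM (lowest, median, highest) and hMut hearts at 1.43, 4.16 and 23.9 CPM. hMut 6 held 23.9 CPM, 8.40 times the Ctrl mean, and hMut 9 held 9.90 CPM, 3.48 times the Ctrl mean. The other 7 hMut hearts, at 1.43 to 4.51 CPM, lay inside the Ctrl range of 1.39 to 4.52 CPM. The log2 fold change of 1.13 ± 0.48 (SE, adjusted p = 0.157) became 0.49 without hMut 6 (adjusted p = 0.410) and 0.13 without hMut 6 and 9 (adjusted p = 0.839). Without the high-*Per2* hearts it was 0.90 (adjusted p = 0.529). Raw counts of *Timp1* were between 52 and 1009 per library.

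*Timp2*, which inhibits MMPs and also takes part in the activation of MMP2 by MMP14, varied least relative to its mean. Its level was 106 to 132 CPM in Ctrl and 108 to 160 CPM in hMut, with medians of 119 and 128 CPM. hMut 6, at 160 CPM, hMut 9, at 155 CPM, and hMut 8, at 135 CPM, were above every Ctrl heart. It differed by a log2 fold change of 0.13 ± 0.07 (SE, adjusted p = 0.250), by 0.04 without hMut 6 and 9 (adjusted p = 0.710) and by 0.17 without the high-*Per2* hearts (adjusted p = 0.467).

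*Timp3*, an inhibitor that stays bound to the matrix and also blocks ADAM and ADAMTS enzymes, set the high-*Per2* hearts apart from the others. The 5 high-*Per2* hearts lay at 164 to 234 CPM and the other 12 hearts at 96.8 to 134 CPM, with no overlap. How many of all genes separate these hearts in the same way was not counted. Among low-*Per2* hearts, the 4 Ctrl hearts had 115 ± 16.5 CPM (SD) and the 8 hMut hearts 112 ± 10.5 CPM (SD). Among high-*Per2* hearts, the 4 Ctrl hearts had 179 ± 16.2 CPM (SD) and the 1 hMut heart, hMut 8, had 234 CPM, the highest of all. Ctrl 8, the high-*Per2* Ctrl heart without more *Xist* than *Ddx3y* counts, held 171 CPM. The low-*Per2* hearts hMut 1 and hMut 4, with more *Xist* than *Ddx3y* counts, held 113 and 106 CPM. The part of sex in this separation was not tested. The difference between genotypes was -0.22 ± 0.17 on the log2 scale (SE, adjusted p = 0.413). It turned to 0.07 ± 0.09 (adjusted p = 0.667) with the high-*Per2* state as a covariate and was -0.04 ± 0.09 (adjusted p = 0.864) without those libraries. Without hMut 8 alone it was -0.39 ± 0.13 (adjusted p = 0.0789). The genes whose log2 CPM was most like that of *Timp3* over the 17 hearts, out of 13629 with a mean of at least 1 CPM, were *Per2* (Pearson r = 0.95), *Ciart* (r = 0.94), a repressor of the clock, and *Rhobtb1* (r = 0.91). This search was added after the values of *Timp3* were seen, and the same 5 high-*Per2* hearts enter every pair.

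**Figure D2:**
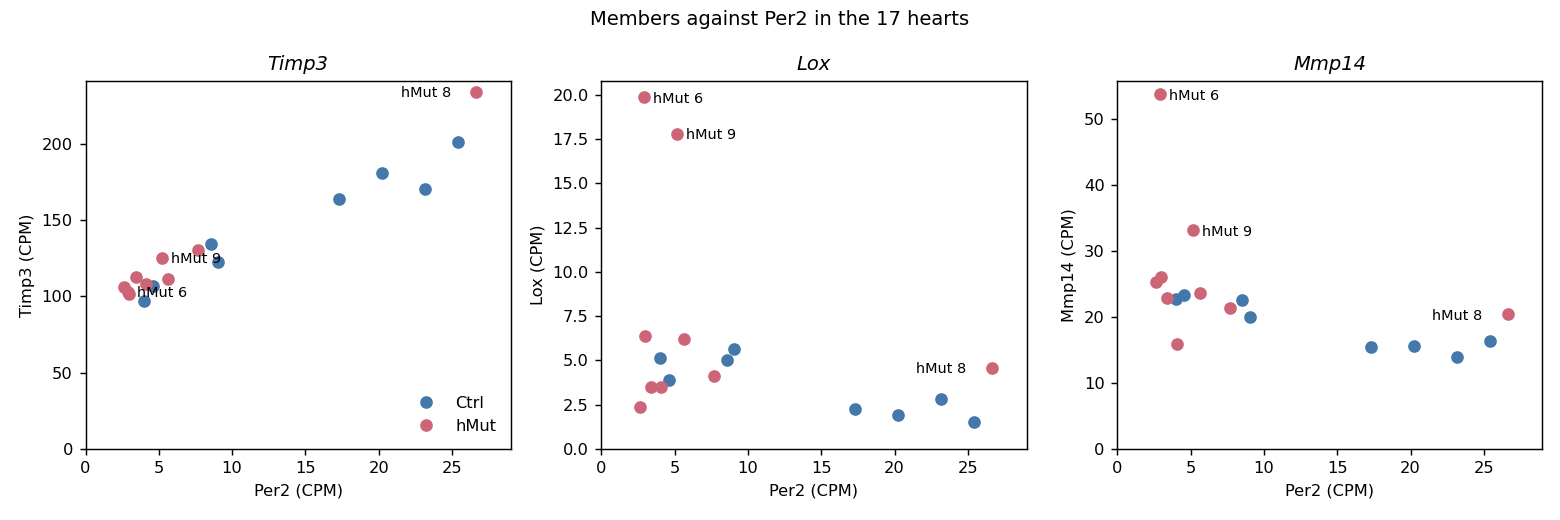
CPM of *Timp3*, *Lox* and *Mmp14* (vertical axes) against CPM of *Per2* (horizontal axes) in 8 Ctrl (blue) and 9 hMut (red) hearts, 1 point per heart. *Timp3* rises along *Per2* in both colours up to 234 CPM in hMut 8, while hMut 6 and hMut 9 stand far above the other hearts in *Lox* and hMut 6 in *Mmp14*.

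*Timp4*, the inhibitor known for its expression in heart muscle, was lower in most but not all hMut hearts. Ctrl hearts lay at 19.0, 24.7 and 31.4 CPM (lowest, median, highest), and 7 of 9 hMut hearts lay below every Ctrl heart, between 6.11 CPM in hMut 6 and 18.7 CPM in hMut 2. Of all genes, 10.7% were below every Ctrl heart in hMut 1, 10.4% in hMut 2, 13.1% in hMut 4, 15.1% in hMut 5, 28.8% in hMut 6, 17.3% in hMut 7 and 26.6% in hMut 9, the 7 hearts with low *Timp4*. hMut 3, at 27.7 CPM, was inside the Ctrl range, and hMut 8, at 65.5 CPM, was above it. High-*Per2* Ctrl hearts, at 19.0 to 31.4 CPM, overlapped the other Ctrl hearts, at 19.4 to 31.1 CPM. The difference did not pass the test, with a log2 fold change of -0.22 ± 0.32 (SE, adjusted p = 0.683). It was -0.65 ± 0.21 (adjusted p = 0.0733) without hMut 8, -0.70 ± 0.27 (adjusted p = 0.300) without the high-*Per2* hearts, and -0.00040 (adjusted p = 0.9996) without hMut 6 and 9.

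*Loxl1*, which crosslinks elastin and is needed to maintain elastic fibres, was the only one of the 10 genes to pass the test. Ctrl hearts lay at 23.1, 29.5 and 39.3 CPM (lowest, median, highest) and hMut hearts at 30.0, 40.4 and 71.5 CPM, and all 9 hMut hearts exceeded the Ctrl median. The 5 hMut hearts above every Ctrl heart were hMut 6 (71.5 CPM), hMut 9 (62.7 CPM), hMut 5 (46.2 CPM), hMut 7 (45.0 CPM) and hMut 3 (40.4 CPM). The groups averaged 45.3 ± 13.4 CPM (SD, n = 9) and 30.4 ± 4.83 CPM (SD, n = 8), a rise of 1.49 times, with a log2 fold change of 0.57 ± 0.15 (SE, adjusted p = 0.0371). The call was narrow. It was lost in 10 of 17 fits that left out 1 library, Ctrl 2 to Ctrl 8, hMut 5, hMut 7 and hMut 9 (log2 fold changes of 0.50 to 0.60, adjusted p of 0.0516 to 0.0759). It was also lost without hMut 6 and 9 (0.36 ± 0.10, adjusted p = 0.0646), where the 7 other hMut hearts averaged 39.1 ± 5.58 CPM (SD), and without the high-*Per2* hearts (0.46 ± 0.20, adjusted p = 0.338). With the high-*Per2* state as a covariate it was 0.44 ± 0.15 (adjusted p = 0.138). The 4 high-*Per2* Ctrl hearts, at 23.1 to 28.5 CPM, lay below the other 4 Ctrl hearts, at 30.5 to 39.3 CPM. Ctrl 8, the high-*Per2* Ctrl heart without more *Xist* than *Ddx3y* counts, held 23.1 CPM. The part of sex in this split was not tested. With sex as a covariate the call between genotypes was also lost (0.54, adjusted p = 0.0550).

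*Lox*, the lysyl oxidase of fibrillar collagen and elastin that gives the family its name, was the least abundant per length. Ctrl hearts lay at 1.54, 3.35 and 5.64 CPM (lowest, median, highest) and hMut hearts at 2.34, 4.58 and 19.9 CPM. hMut 6 held 19.9 CPM and hMut 9 held 17.8 CPM, which are 5.64 and 5.05 times the Ctrl mean, and no other hMut heart exceeded 6.36 CPM. The log2 fold change was 1.11 ± 0.43 (SE, adjusted p = 0.121), and it was 0.32 without hMut 6 and 9 (adjusted p = 0.567) and 0.70 without the high-*Per2* hearts (adjusted p = 0.555). High-*Per2* Ctrl hearts held 1.54 to 2.81 CPM and the other Ctrl hearts 3.90 to 5.64 CPM. The means of the 2 sets differed by -1.21 on the log2 scale. Ctrl 8, the high-*Per2* Ctrl heart without more *Xist* than *Ddx3y* counts, was the highest of its set at 2.81 CPM. The part of sex in this split was not tested.

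*Loxl2*, which oxidises collagen including that of basement membranes, lay at 11.9, 15.6 and 19.2 CPM (lowest, median, highest) in Ctrl and at 12.8, 18.9 and 36.6 CPM in hMut. The highest values were 36.6 CPM in hMut 9 and 33.0 CPM in hMut 6, and the other 7 hMut hearts did not exceed 20.03 CPM. For *Loxl2* the log2 fold change was 0.47 ± 0.18 (SE, adjusted p = 0.130), with 0.18 without hMut 6 and 9 (adjusted p = 0.419) and 0.53 without the high-*Per2* hearts (adjusted p = 0.382).

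**Figure D3:**
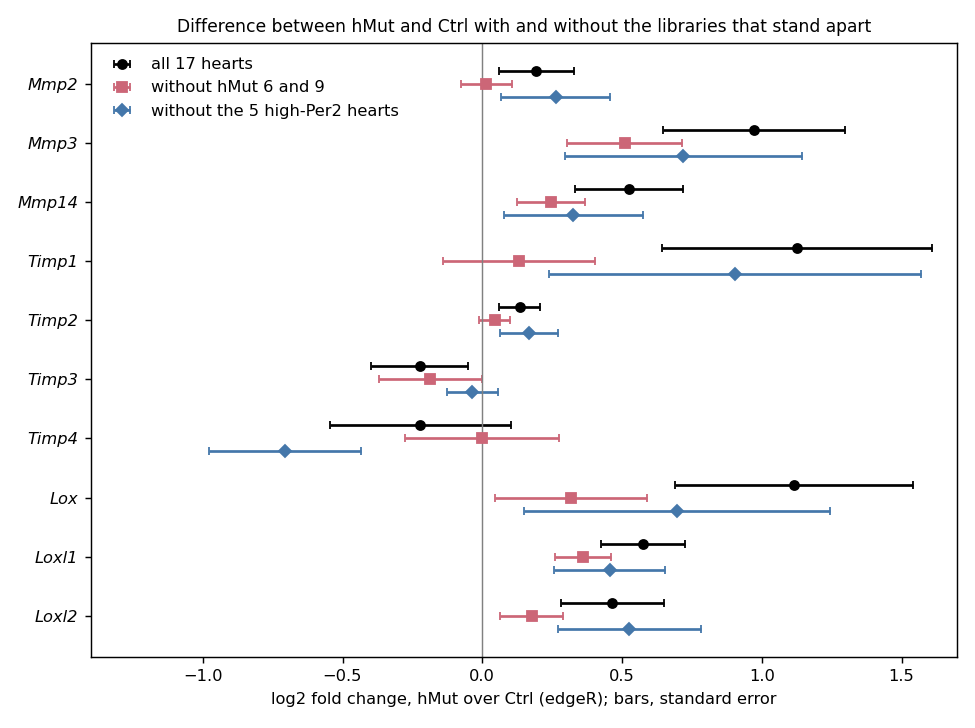
Log2 fold change between hMut and Ctrl (horizontal axis) with its standard error for the 10 genes, with all 17 hearts (black), without hMut 6 and 9 (red) and without the 5 high-*Per2* hearts (blue). Leaving out hMut 6 and 9 brought *Timp1* from 1.13 to 0.13 and *Lox* from 1.11 to 0.32, and leaving out the high-*Per2* hearts brought *Timp3* from -0.22 to -0.04 and *Timp4* from -0.22 to -0.70.

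Seen heart by heart, hMut 6 and hMut 9 each had 8 of the 10 genes above every Ctrl heart, the same 8 genes in both. These were the 3 proteases, *Timp1*, *Timp2* and the 3 crosslinkers. In both hearts *Timp4* was below every Ctrl heart. hMut 5 had 5 of the 10 above every Ctrl heart where 16.0% of all genes were, and hMut 8 had 4, namely *Mmp2*, *Timp2*, *Timp3* and *Timp4*, where 15.6% of all genes were. hMut 7 had 3, where 17.7% of all genes were, hMut 4 had 2 (14.7%) and hMut 3 had 1 (13.7%). hMut 1 and hMut 2 had 0 of the 10 above, with 11.0% and 10.9% of all genes.

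**Figure D4:**
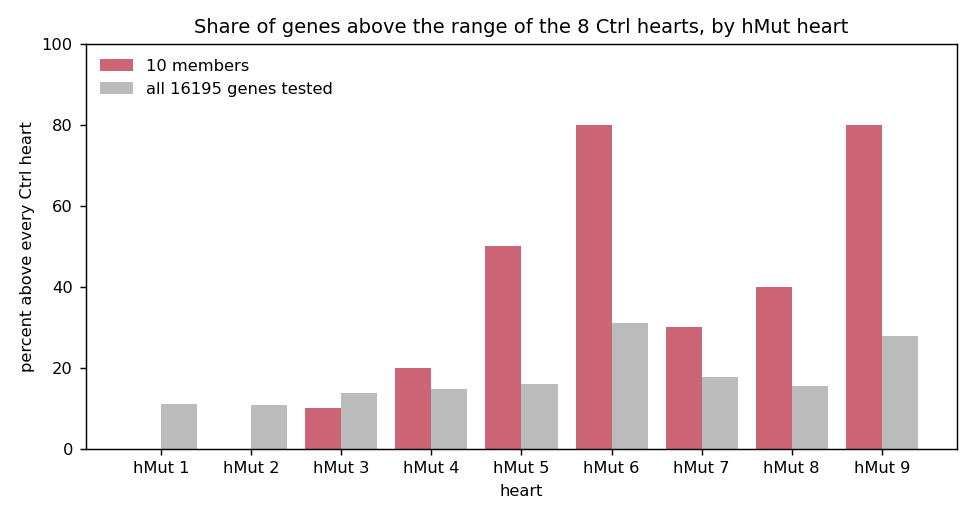
Percent of the 10 genes (red bars) and of all 16195 genes tested (grey bars) that lay above every one of the 8 Ctrl hearts, for each of the 9 hMut hearts. The red bars of hMut 6 and hMut 9 stand for 8 of 10 genes, beside grey bars of 31.1% and 27.9%.

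Markers of other cells moved in the same hearts. Activated fibroblast markers summed to 110 to 244 CPM in Ctrl, to 718 CPM in hMut 6, to 546 CPM in hMut 9 and to 126 to 333 CPM in the other 7 hMut hearts, and 3 of the 7 tested (*Meox1*, *Cilp* and *Comp*) rose in hMut. Macrophage markers summed to 162 to 229 CPM in Ctrl, to 709 CPM in hMut 6, to 388 CPM in hMut 9 and to 194 to 239 CPM in the others, and 0 of 10 passed the test with edgeR (6 at an unadjusted p under 0.05). General fibroblast markers summed to 1459 to 1896 CPM in Ctrl and to 1506 to 1985 CPM in hMut, with 0 of 7 passing (3 at an unadjusted p under 0.05). Cardiomyocyte markers summed to 42451 to 51379 CPM in Ctrl, to 33900 CPM in hMut 6, to 31668 CPM in hMut 9 and to 41801 to 50300 CPM in the others, with 0 of 8 passing (6 at an unadjusted p under 0.05). Lymphocyte markers summed to 3.04 to 49.6 CPM in Ctrl, to 70.9 CPM in hMut 6, to 11.8 CPM in hMut 9 and to 5.82 to 12.2 CPM in the others. Smooth muscle and pericyte markers summed to 1109 to 1345 CPM in Ctrl, to 867 CPM in hMut 6, to 1233 CPM in hMut 9 and to 1208 to 1379 CPM in the others. Of the atrial markers 0 of 2 passed, *Nppa*, which heart muscle under load is also known to make (log2 fold change 1.16, adjusted p = 0.101), and *Myl4* (0.14, adjusted p = 0.635). Of the other marker lists, 1 of 7 endothelial (*Kdr*), 1 of 7 smooth muscle and pericyte (*Pdgfrb*) and 1 of 3 mesothelial genes (*Wt1*) rose. Beside these counts and the 3 of 7 activated fibroblast markers, 3.48% of all genes tested passed as higher. In the smooth muscle and pericyte list 6 of 7 fold changes were positive, with a list median of 0.15, and *Abcc9* was at -0.27 (adjusted p = 0.0838). Of the lymphocyte genes 0 of 9 passed and of the neutrophil genes 0 of 4 (4 and 0 at an unadjusted p under 0.05), and no adipocyte gene was tested. Without the high-*Per2* hearts, the 6 marker genes named here as rising had adjusted p of 0.237 to 0.326. With that state as a covariate they had 0.0748 to 0.139, so that 0 of the 6 calls held in either fit. *Acta2*, an activated fibroblast marker not called in the main test (0.49, adjusted p = 0.185), passed in both. It was at 0.89 (adjusted p = 0.0446) with the covariate and 1.09 (adjusted p = 0.0321) without those hearts. The lymphocyte gene *Cd79b* passed as lower with the covariate (-1.29, adjusted p = 0.0433) but not without those hearts (-1.47, adjusted p = 0.0981). Of all genes, 1.44% and 0.376% passed as higher in these fits. The fit without those hearts kept 4 Ctrl and 8 hMut hearts. In it the log2 fold change went from 1.086 to 1.085 for *Meox1*, 2.132 to 2.253 for *Cilp* and 2.235 to 2.321 for *Comp*. It went from 0.389 to 0.265 for *Kdr*, 0.243 to 0.217 for *Pdgfrb* and 0.545 to 0.459 for *Wt1*. The parts of the high-*Per2* state and of fewer hearts in the lost calls were not tested. Without hMut 6 and 9, *Meox1* (0.69, adjusted p = 0.0198) and *Wt1* (0.49, adjusted p = 0.0369) still passed and the other 4 did not. No marker of these lists was at 0 in every library, and the part of these cells in the values of the 10 genes was not tested.

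Per length, *Timp2* was the most abundant of the 10 genes in both groups. Levels per length (CPM per kb of the gene length in the count table) averaged 30.4 ± 2.11 in Ctrl and 33.3 ± 4.58 in hMut for *Timp2* (SD, n = 8 and 9). In Ctrl, *Timp3* followed at 18.1 ± 4.59, *Mmp2* at 10.004 ± 1.14 and *Loxl1* at 9.23 ± 1.46 CPM per kb. Then came *Timp4* at 4.26 ± 0.83, *Timp1* at 3.21 ± 1.27, *Mmp14* at 3.14 ± 0.64, *Loxl2* at 2.85 ± 0.51 and *Mmp3* at 2.03 ± 0.80 CPM per kb, with *Lox* last at 0.74 ± 0.34 CPM per kb. In this order the neighbours *Mmp2* and *Loxl1*, and each neighbouring pair from *Timp4* to *Mmp3*, had overlapping ranges of mean ± SD, and the other neighbours did not. In hMut the means were 15.5 ± 5.14 for *Timp3*, 13.7 ± 4.08 for *Loxl1* and 11.4 ± 3.20 for *Mmp2*, and the SD of *Timp1* exceeded its mean of 6.95 CPM per kb. In hMut 6 *Timp1* reached 26.9 CPM per kb, below *Timp2* at 41.0 and above *Timp3* at 12.6 CPM per kb.

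**Figure D5:**
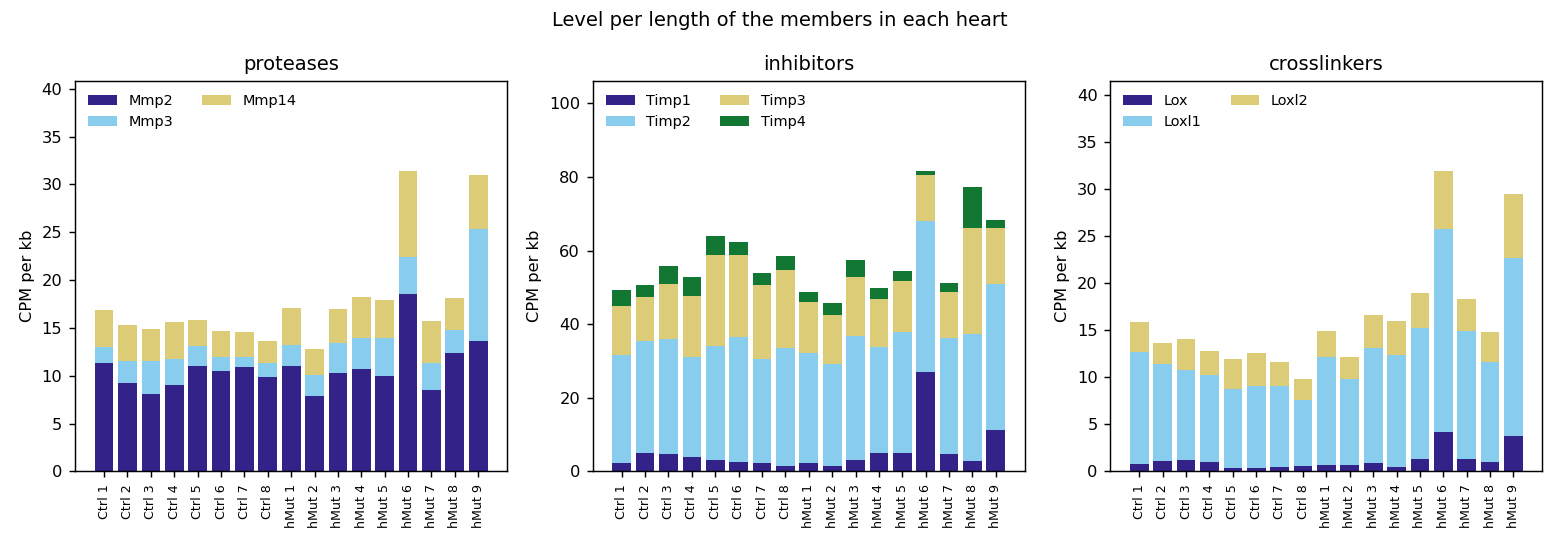
Level per length (CPM per kb, stacked bars from 0) of the 3 proteases, 4 inhibitors and 3 crosslinkers in each of the 17 hearts. The bars of hMut 6 and hMut 9 reach 31.4 and 30.9 CPM per kb for the proteases and 31.9 and 29.5 for the crosslinkers, and the *Timp3* segment is thick in Ctrl 5 to 8 and hMut 8.

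The make-up of each family shifted in single hearts. *Timp1* made up 5.83% ± 2.54 of the summed TIMP level per length in Ctrl (SD, n = 8) and 10.5% ± 9.37 in hMut (SD, n = 9), with 33.0% in hMut 6 and 16.3% in hMut 9. *Timp4* made up 7.65% ± 1.51 in Ctrl, 1.27% in hMut 6 and 14.4% in hMut 8. *Mmp3* made up 37.8% of the 3 proteases in hMut 9 and at most 23.6% in any Ctrl heart. *Loxl1* made up 71.9% ± 2.84 of the crosslinkers in Ctrl and 72.4% ± 3.75 in hMut. The summed crosslinker level was 12.8 ± 1.80 CPM per kb in Ctrl and 19.3 ± 6.83 in hMut, and the summed TIMP level 55.9 ± 5.36 and 59.4 ± 13.1 CPM per kb. These shares and sums are descriptions and were given no test.

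Ratios between members were taken within each heart on the log2 scale, per length. The ratio of *Timp1* to *Timp4* averaged -0.49 ± 0.60 in Ctrl (SD, n = 8) and 0.65 ± 1.99 in hMut (SD, n = 9). It reached 4.70 in hMut 6 and 2.43 in hMut 9, and 5 of 9 hMut hearts were above and 1 below every Ctrl heart. *Timp1* to *Timp2* averaged -3.35 ± 0.62 in Ctrl and -2.82 ± 1.10 in hMut, and *Timp1* to *Timp3* averaged -2.55 ± 0.85 and -1.67 ± 1.40. The ratio of *Mmp2* to *Timp2* averaged -1.61 ± 0.19 in Ctrl and -1.58 ± 0.23 in hMut, and only hMut 6 exceeded the Ctrl range. *Mmp2* to *Mmp14* averaged 1.69 ± 0.39 in Ctrl and 1.38 ± 0.27 in hMut. *Lox* to *Loxl1* averaged -3.78 ± 0.63 and -3.45 ± 0.72, and *Lox* to *Loxl2* -2.08 ± 0.84 and -1.61 ± 0.68. In both, only hMut 6 and hMut 9 lay above the Ctrl range.

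The genes most like the 3 members with the smallest adjusted p were found by Pearson's r of log2 CPM over the 17 hearts, among the same 13629 genes, as a description in which hMut 6 and 9 and the high-*Per2* hearts enter every pair. For *Loxl1* they were *Fbn1* (r = 0.98), which encodes the microfibril protein fibrillin-1, *Pmepa1* (r = 0.97) and *Cx3cl1* (r = 0.96). For *Mmp14* they were *Etv6* (r = 0.97), *Arl4c* (r = 0.96) and *Cx3cr1* (r = 0.96), a receptor carried by macrophages. For *Mmp3* they were *Btaf1* (r = 0.91), *Nostrin* (r = 0.90) and *Il1r1* (r = 0.89).

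Other proteases of the same superfamilies were read from listed genes. Of 11 other MMPs tested, 0 passed the test with edgeR, DESeq2 or limma-voom, and 2 had an unadjusted p under 0.05, *Mmp23* (log2 fold change 0.39, adjusted p = 0.142) and *Mmp17* (0.24, adjusted p = 0.180). *Mmp9*, the gelatinase of neutrophils and macrophages, followed at -0.48 (adjusted p = 0.260). Of 23 ADAM and ADAMTS proteases tested, 3 rose and 0 fell, against 3.48% and 1.14% of all genes tested. *Adamts20* rose most, by 3.02 ± 0.35 on the log2 scale (SE, adjusted p = 5.47e-05), from at most 0.41 CPM in Ctrl to 0.58, 1.9986 and 5.21 CPM (lowest, median, highest) in hMut. *Adamts8* rose by 1.66 ± 0.31 (adjusted p = 0.0054), from a median of 0.74 to one of 2.12 CPM, and *Adamts9*, a protease of versican, by 0.49 ± 0.11 (adjusted p = 0.0210). The median log2 fold change of the ADAM and ADAMTS list was 0.17, and that of the other MMPs 0.12. Without the high-*Per2* hearts 1 of the ADAM and ADAMTS genes passed, *Adamts20* (2.80, adjusted p = 0.0352).

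Of 24 other genes of collagen maturation and crosslinking, 2 rose and 0 fell, against 3.48% and 1.14% of all genes tested. The median log2 fold change of the list was 0.10. *P3h2*, a prolyl 3-hydroxylase of collagen, rose by 1.01 ± 0.21 on the log2 scale (SE, adjusted p = 0.00977), and *P4ha1*, a catalytic subunit of prolyl 4-hydroxylase, by 0.36 ± 0.10 (adjusted p = 0.0398). *Tgm2*, a transglutaminase, was at 0.34 ± 0.10 (adjusted p = 0.0533). Without the high-*Per2* hearts 0 of the 24 passed (*P3h2* at 1.02, adjusted p = 0.191, and *P4ha1* at 0.28, adjusted p = 0.231), and without hMut 6 and 9 *P3h2* alone did (0.69, adjusted p = 0.00661). Of 8 genes of the plasminogen system and other activators and inhibitors, *Plat*, the tissue plasminogen activator, rose by 0.47 ± 0.10 (adjusted p = 0.0132), while *Serpine2*, a serine protease inhibitor, was at 0.25 ± 0.12 (adjusted p = 0.193). The call of *Plat* was lost with the high-*Per2* state as a covariate (0.41, adjusted p = 0.0691) and without those hearts (0.44, adjusted p = 0.224), and it held without hMut 6 and 9 (0.34, adjusted p = 0.00706). The median of that list was 0.16.

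Substrates of these enzymes all had positive fold changes, 11 of 11 with a median of 0.51 on the log2 scale, but 2 passed the test. Of all genes tested, 50.5% had positive fold changes and 3.48% passed as higher. *Eln*, elastin, rose by 1.07 ± 0.27 on the log2 scale (SE, adjusted p = 0.0332), with 16.6, 24.8 and 33.4 CPM (lowest, median, highest) in Ctrl and 28.0, 36.6 and 109 CPM in hMut. *Fbn1* rose by 0.73 ± 0.20 (adjusted p = 0.0404), and *Fbln5*, an elastic fibre protein that binds LOXL1, was at 0.25 ± 0.07 (adjusted p = 0.0566). Summed substrate levels were 402 to 700 CPM in Ctrl, 1634 CPM in hMut 6, 1197 CPM in hMut 9 and 542 to 798 CPM in the other 7 hMut hearts. Without hMut 6 and 9 or without the high-*Per2* hearts, 0 of 11 passed.

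Cytokines, receptors and AP-1 factors that are known to act on TIMP1, MMP and LOX genes were listed as well. Of 18 tested, 3 rose and 0 fell (3.48% and 1.14% of all genes tested), with a list median of 0.25. *Il6st*, the shared receptor subunit of the IL-6 family, rose by 0.44 ± 0.06 on the log2 scale (SE, adjusted p = 0.000463). It lay at 207 to 237 CPM in Ctrl and 245 to 333 CPM in hMut, without overlap, a pattern found in 0.543% of all genes tested. *Tgfb2* rose by 0.92 ± 0.23 (adjusted p = 0.0303) and *Fosl2*, an AP-1 factor, by 0.44 ± 0.11 (adjusted p = 0.0349). Without the high-*Per2* hearts 1 of the 18 passed, *Il6st* (0.50, adjusted p = 0.0230).

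Positions in the count table (GRCm39) bear on how certain the counts are. *Mmp2* lies on chromosome 8 from 93553919 to 93580048, *Mmp3* on chromosome 9 from 7445822 to 7455975 and *Mmp14* on chromosome 14 from 54669069 to 54682821. *Timp1* lies on chromosome X from 20736405 to 20740974, *Timp2* on chromosome 11 from 118191895 to 118246566, *Timp3* on chromosome 10 from 86136236 to 86185370 and *Timp4* on chromosome 6 from 115218853 to 115229166. *Loxl1* lies on chromosome 9 from 58195021 to 58220469, *Loxl2* on chromosome 14 from 69846517 to 69933283 and *Lox* on chromosome 18.

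*Timp1*, *Timp3* and *Timp4* each lie inside a synapsin gene on the opposite strand, *Syn1*, *Syn3* and *Syn2*. In the GENCODE annotation of the same build, *Timp1* shares 0 exon bases with *Syn1*, *Timp3* shares 1734 of 8146 with *Syn3* and *Timp4* shares 1142 of 7743 with *Syn2*. The count table gives lengths of 8144 for *Timp3*, 5894 for *Timp4* and 888 for *Timp1*, which has 1957 exon bases in GENCODE. Some shared bases may thus lie outside the exons counted. Levels per length rest on the lengths of the count table. Whether reads were counted by strand is not stated, so the *Timp3* and *Timp4* counts are uncertain by what these exons share. Mean counts per library were 17.6 for *Syn3* against 5126 for *Timp3*, and 236 for *Syn2* against 861 for *Timp4*. *Syn2* lay at 4.57 to 7.90 CPM in Ctrl and at 3.91 to 8.88 CPM in hMut. *Timp2* shares 332 exon bases with *Cep295nl* on the same strand, which had a mean of 5.06 counts.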

How the data were processed

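Per the labels and the study's methods, poly(A) libraries from heart RNA were sequenced on a NovaSeq X Plus. According to the submitters' processing notes, reads were filtered with fastp, aligned with HISAT2 2.2.1 to GRCm39 and counted with featureCounts 2.0.6, and DESeq2 1.42.0 was used by the authors. The authors deposited these counts with no normalization. The strand setting of the counting was not given in the sources used here.

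CPM and tests were computed here with edgeR 4.0.16 (R 4.3.3), with TMM normalization, the filterByExpr filter, the quasi-likelihood test with group as the only term and Benjamini-Hochberg adjustment over 16195 genes at a threshold of 0.05. All adjusted p-values are two-sided and from this test unless another tool is named. Standard errors are the size of the log2 fold change over the square root of the F statistic, and log2 CPM used a prior count of 2. On simulated counts for hMut against Ctrl, 186 of 200 genes changed by 1 on the log2 scale were called (93%), along with 9 of the unchanged genes, of 16018 tested. Levels per length divide CPM by the gene length in the deposited table. Counts at this depth, 32915159 to 46486964 per library, set the counting error, which covers less than the spread between mice.

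Groups and replicate numbers came from the labels, which number different mice. Spearman's correlation across genes with any count was 0.921 to 0.944 over 136 library pairs, so no pair held the same values. The members, lists, tests and alternatives were chosen with earlier results of these data known. Named genes were the 10 members, *Polg*, of each list the 3 smallest adjusted p-values and others past the threshold up to 6 in all, the 3 genes most like each of the 3 members with the smallest adjusted p, and genes overlapping a member. A gene that this rule would name is not reported here. *Per2*, *Arntl*, *Ciart*, *Rhobtb1*, *Meox1*, *Cilp*, *Comp*, *Acta2*, *Kdr*, *Pdgfrb*, *Abcc9*, *Wt1*, *Cd79b* and *Adamts7* fall outside this rule and were named after their values were seen. Alternatives were DESeq2, limma-voom 3.58.1 with quality weights, RLE and upper-quartile normalization, 2 other filters, nuclear protein-coding genes only, sex as a covariate (from *Xist* and *Ddx3y*), a replicate block and libraries left out. The high-*Per2* state (more *Per2* than *Arntl* counts) as a covariate, and its libraries left out, were added after seeing the data. Python 3.11.15, numpy 2.4.6, pandas 2.3.3 and matplotlib 3.10.9 were used for descriptions and figures. Promoters came from RefSeq, and none was matched for *Mmp2*, *Lox*, *Loxl1* and *Loxl2*.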

Additional observations from a re-analysis of the deposited data

Results flagged for a closer look

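A sample was marked where its log2 CPM lay farther from the nearest other heart of its group than Dixon's 95% critical value allows, over 20 tests of 10 genes in 2 groups. Chance marks about 1 in 20 such groups, and 2 values were marked. *Mmp3* in hMut 9, at 21.1 CPM, was the highest of the hMut hearts, with the next at 7.19 CPM. *Timp3* in hMut 8, at 234 CPM, was the highest of the hMut hearts, with the next at 131 CPM, and hMut 8 is the only hMut heart with more *Per2* than *Arntl* counts.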

How the results depend on the processing

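Over 13 alternatives that kept or changed the whole table, 122 of 130 log2 fold changes of the 10 genes kept their direction and their side of the threshold, 6 lost the call, 1 gained it and 1 turned. Those that lost it were *Loxl1* with sex as a covariate (0.54, adjusted p = 0.0550), with the replicate number as a block (0.47), without hMut 6 and 9 (0.36), without Ctrl 2 and 3 (0.61), with the high-*Per2* state as a covariate (0.44) and without the high-*Per2* hearts (0.46). *Mmp3* gained it with limma-voom (0.85) and *Timp3* turned to 0.067 with the high-*Per2* state as a covariate. Members past the threshold were 0 in each of these 6 fits of *Loxl1* and 2 with limma-voom.

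Genes past the threshold, 749 in the main test, were 463 with no filter on low counts, 1517 with DESeq2, 2081 with limma-voom, 431 without hMut 6 and 9, 373 without Ctrl 2 and 3, 281 with the high-*Per2* state as a covariate and 75 without those libraries. The split was 564 higher and 185 lower in the main test, 1010 and 507 with DESeq2, and 1175 and 906 with limma-voom. The ADAM and ADAMTS list held 7 genes past the threshold with DESeq2 and with limma-voom, 5 without hMut 6 and 9 and 1 without the high-*Per2* hearts. Among the 5 without hMut 6 and 9, *Adamts7* was lower in hMut (-0.41, adjusted p = 0.0371). The collagen maturation list held 4 with DESeq2 and with limma-voom, 1 with sex, without hMut 6 and 9, without Ctrl 2 and 3 and with the high-*Per2* covariate, and 0 without those libraries. The activator list held 0 with that covariate and without those libraries. The substrate list held 1 with sex and 0 without hMut 6 and 9, without Ctrl 2 and 3, with the covariate and without those libraries. The cytokine and AP-1 list held 1 with sex, without Ctrl 2 and 3, with the covariate and without those libraries. The cause was not tested.

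With 1 library left out, the log2 fold change lay between 0.47 and 0.63 for *Loxl1*, 0.57 and 1.13 for *Mmp3*, 0.33 and 0.60 for *Mmp14*, and -0.39 (without hMut 8) and -0.15 for *Timp3*. Members past the threshold were between 0 and 3, and genes between 395 (without hMut 5) and 1792 (without hMut 2). The lists held 0 to 1 other MMPs, 3 to 7 ADAM and ADAMTS genes, 1 to 7 of collagen maturation, 0 to 5 substrates and 1 to 4 cytokines and AP-1 factors, with the most of each without hMut 2.

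Same-numbered libraries of the 2 groups did not deviate together (correlations of -0.23 to 0.34 over 8 pairs), so the numbers do not pair the mice. With the number as a replicate block, hMut 9 left out, 185 genes passed, with *Loxl1* at 0.47 (adjusted p = 0.140), 0 members, 1 ADAM and ADAMTS gene, 1 cytokine or AP-1 gene and 0 of the other lists. Depth limits *Timp1*, *Lox* and *Mmp3* most, with 52, 57 and 81 counts in their lowest libraries.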
